A study of Mus musculus with 3 samples.

Results

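The oxidative phosphorylation genes of the mouse small intestine are described here in 3 single-cell libraries. The group holds every gene whose symbol names a subunit, or a subunit-family assembly factor, of respiratory complexes I to V: the Nduf, Uqcr, Cox4 to Cox8, Atp5 and Sdh genes of the nucleus, and the mt-Nd, mt-Co, mt-Cytb and mt-Atp genes of the mitochondrial genome. Of 106 genes with such symbols, 100 reached 50 unique molecular identifiers (UMIs, counts of captured RNA molecules) over the 3 libraries and were kept as members, out of 14480 genes with as many UMIs. They comprised 87 nuclear and 13 mitochondrial genes. The nuclear members were 36 subunits and 8 assembly factors of complex I, 4 subunits of complex II, 8 of complex III, 15 of complex IV and 16 of complex V. The 6 genes under the limit were Cox8b and Cox8c with 0 UMIs, Cox7b2 with 1, a duplicate Atp5o identifier with 3, Cox4i2 with 14 and Ndufa4l2 with 29. Just above it stood Cox6a2 with 336 UMIs and Ndufaf5 with 1011.

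Oxidative phosphorylation burns the electrons of food on oxygen in the inner mitochondrial membrane. Complexes I and II take the electrons from NADH and succinate, complex III and complex IV pass them to oxygen by way of cytochrome c, and complex V (ATP synthase) uses the resulting proton gradient to make ATP. The mitochondrial genome encodes a small core of complexes I, III, IV and V, and all other subunits come from the nucleus, so both genomes must supply one machine. In the gut, enterocytes are born in the crypt, move up the villus while they absorb nutrients, and are shed at the tip.

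The study set out to mark mature enteroendocrine cells, and these libraries catalogued the cells of the normal small intestine. Each library (Duodenum, Jejunum, Ileum) held live, propidium iodide-negative cells of the epithelium and the intraepithelial immune compartment, pooled from 3 wild-type (WT) male C57BL/6N mice of 12 weeks. There was 1 library per segment, so segment and library cannot be told apart. The libraries held 9501, 8139 and 9595 cell barcodes and 98518847, 87656078 and 78074516 UMIs, and 20 to 28 barcodes were shared by any pair of libraries. After the study's own cell filters, among them at most 40% mitochondrial UMIs, 4255, 4360 and 8071 cells stayed, 16686 in all. Their median depth was 12424, 11737 and 5536 UMIs, and their median mitochondrial share was 27.1%, 27.2% and 11.1%. Clusters were named from markers ("enterocyte" below means enterocyte-like, and so on), and members and all mitochondrial genes were left out of the clustering. Named cells were 11272 enterocytes, 1226 T cells, 747 goblet, 572 B, 300 tuft, 227 stem and proliferating (ISC), 171 enteroendocrine, 109 macrophage or dendritic, 87 plasma and 24 Paneth cells, and 1951 stayed unnamed. The study isolated intestinal epithelial cells, and by their markers immune cells were also part of every library. Nuclear members are given per 10000 non-mitochondrial UMIs and mitochondrial members per 10000 UMIs. 3′ UMIs count captured molecules and not length, but capture may differ between genes, which was not tested. Shares of isoforms below are therefore shares of captured UMIs, and need not equal shares of the RNA in the cells.

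The nuclear members fell steeply from villus bottom to villus tip. Enterocytes of each library were ranked by landmark genes of the villus bottom and tip, none of them a member, and cut into 5 zones of 699 to 841 cells, zone 1 at the bottom. In the duodenum the summed level of the 87 nuclear members was 739, 538, 442, 358 and 237 per 10000 from zone 1 to zone 5, a 3.12-fold fall. In the jejunum it was 632, 348, 242, 201 and 138, a 4.57-fold fall. In the ileum it was 447, 286, 212, 138 and 93.4, a 4.79-fold fall. Each library thus stepped down at each of its 4 borders, and the lowest zone 1 value lay above the highest zone 5 value. The individual genes followed the sum: 77, 82 and 81 of the 87 nuclear members fell at every step in duodenum, jejunum and ileum. The zone 1 levels of all 3 libraries lay above all 3 zone 5 levels for 83 of 87 members, against 37.5% of all nuclear genes with at least 50 UMIs.

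**Figure D1:**
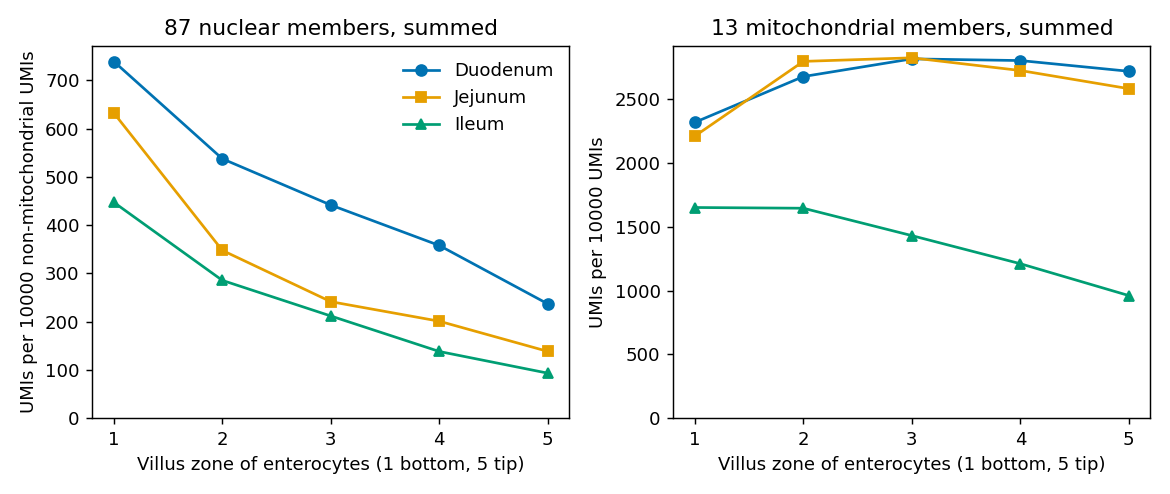
Summed level of the 87 nuclear members (left, per 10000 non-mitochondrial UMIs) and the 13 mitochondrial members (right, per 10000 UMIs) by villus zone, 1 line per library. The nuclear sum drops from 739, 632 and 447 in zone 1 to 237, 138 and 93.4 in zone 5. The mitochondrial sum rises to zone 3 and then declines in duodenum and jejunum, ending above zone 1, and falls in the ileum.

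The zones were compared with edgeR's quasi-likelihood test on UMIs summed per library and zone, with the library as a block and 10982 nuclear genes tested. Of the 86 nuclear members that passed the filter on low counts, 85 were lower and 1 was higher in zone 5 than in zone 1, against a background of 53.1% lower and 19.2% higher among all genes. Cox6a2 did not pass the filter. The median log2 fold change of the members was -2.27 and that of all genes -0.70, and the medians by library were -1.74, -2.50 and -2.43. Under TMM scaling 82 members were lower and the same count of 1 was higher. The medians then stood at -1.68 for members and -0.12 for all genes. Relative to all genes the members were at -1.58 by total UMIs and -1.56 by TMM. A scaling factor shifts every gene of a sum alike, so this difference could hardly change between the scalings. Other properties also differed between zone 1 and zone 5, and their part in the result was not tested. The median UMIs per cell were 18131 and 8559, 21278 and 10851, and 13415 and 7592. In the ileum this depth did not fall at every step, with 13415, 4992, 6035, 7321 and 7592 from zone 1 to zone 5. The share of cytosolic ribosomal protein UMIs fell from 6.50% to 1.02%, 5.71% to 0.770% and 9.60% to 1.29%. The share of the 10 most abundant genes rose from 12.7% to 22.5%, 14.9% to 28.1% and 17.2% to 28.7%. Among enterocytes of 5000 to 15000 UMIs alone, 84 members were lower and 1 higher, with a median of -1.85.

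All 36 complex I subunits were lower at the tip, with a median log2 fold change of -2.38 and a range of -4.28 to -1.07. Their summed level fell from 184 to 61.0 in the duodenum, from 154 to 32.6 in the jejunum and from 107 to 21.4 in the ileum. Ndufc2, a small subunit of the membrane arm, went from 4.76 to 0.495, from 3.33 to 0.109 and from 2.60 to 0.118 per 10000. That was the steepest fall of any complex I subunit, 19.4-fold (log2 -4.28, SE 0.33, adjusted p = 4.50e-07, lower in 3 of 3 libraries). Ndufb5, another membrane arm subunit, fell from 5.31 to 0.829, from 4.66 to 0.332 and from 3.89 to 0.203 (log2 -3.58, SE 0.27, adjusted p = 3.49e-07). Ndufs1, which carries iron-sulfur clusters of the electron path, fell less, from 1.40 to 0.501, from 1.14 to 0.265 and from 0.837 to 0.259 (log2 -1.77, SE 0.16). The complex I subunits from the mitochondrial genome are given with the mitochondrial members.

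The 8 assembly factors of complex I, which help to build it and are not part of the finished enzyme, were all lower at the tip, with a median of -2.81 and the widest spread of any group but complex IV. Ndufaf4 fell from 0.830 to 0.0481, from 0.45 to 0.0137 and from 0.306 to 0.00910 per 10000, which was 908 to 23, 522 to 8 and 335 to 6 UMIs. This 29.1-fold fall (log2 -4.86, SE 0.47, adjusted p = 2.45e-06) was the largest of any nuclear member. Ndufaf6 fell from 0.162 to 0.0146, from 0.104 to 0.00513 and from 0.164 to 0.0137 (log2 -3.72, SE 0.34, adjusted p = 1.61e-06). Ndufaf8 stood at the other end, from 1.00 to 0.825, from 1.01 to 0.582 and from 0.928 to 0.420 (log2 -0.72, adjusted p = 0.00182). Its fall was close to that of the median gene.

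Complexes II and III shared the pattern. Sdhd, a membrane anchor of complex II (succinate dehydrogenase), fell from 4.48 to 0.972, from 3.85 to 0.328 and from 2.53 to 0.219, an 8.59-fold drop (log2 -3.10, SE 0.25, adjusted p = 6.11e-07). Sdhb, its iron-sulfur subunit, fell from 6.95 to 2.49, from 6.20 to 1.21 and from 3.98 to 0.80 (log2 -2.06, SE 0.20). All 4 complex II genes were lower, with a median of -2.04. In complex III all 8 genes were lower, also with a median of -2.04. Uqcr11, a small subunit, fell from 14.2 to 2.83, from 10.8 to 1.55 and from 6.39 to 0.777 (log2 -2.73, SE 0.18, adjusted p = 1.32e-07). Uqcrh, the hinge protein beside cytochrome c1, fell from 14.5 to 3.71, from 13.9 to 1.73 and from 10.7 to 2.03 (log2 -2.47, SE 0.19).

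In complex IV (cytochrome c oxidase), 13 of 14 tested genes were lower and Cox6b2 was higher. Cox7b, a small subunit, fell from 15.7 to 3.30, from 13 to 1.5 and from 8.84 to 0.669 (log2 -3.02, SE 0.27, adjusted p = 1.10e-06). Cox4i1, the common form of subunit 4, fell from 29.2 to 9.68, from 28.8 to 8.05 and from 24.3 to 6.89 (log2 -1.76, SE 0.14). Its log2 fold change lay between those of Cox8a (-2.46), Cox6a1 (-2.28) and Cox7a2l (-1.53), a factor that joins complexes III and IV into larger assemblies. Ndufa4, named for complex I but bound to complex IV, fell from 12.2 to 2.61, from 14.8 to 2.25 and from 9.21 to 1.18 (log2 -2.63, SE 0.17). In complex V all 16 genes were lower, with a median of -1.94. Atp5d, the delta subunit of the catalytic head, fell least, from 13.8 to 9.90, from 14.0 to 8.11 and from 11.1 to 4.15 (log2 -0.88, SE 0.19, adjusted p = 0.00098). Atpif1, the inhibitor protein of ATP synthase, is not a member by its symbol, and its level went from 18 to 3.61, from 19.6 to 2.79 and from 13.9 to 1.48.

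**Figure D2:**
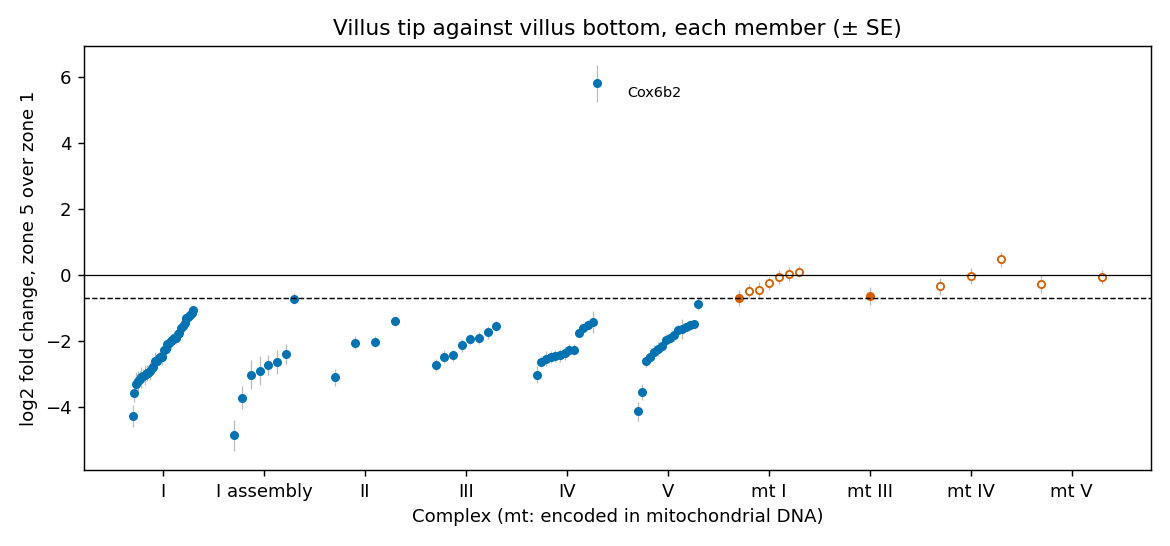
Log2 fold change of zone 5 over zone 1 for each tested member, grouped by complex, with a standard error calculated back from the F statistic of the test. Filled points passed the adjusted p of 0.05, open points did not, blue marks nuclear and orange mitochondrial members, and the dashed line is the median of all genes at -0.70. Nuclear members lie below 0 except Cox6b2 at 5.81, and mitochondrial members lie between -0.70 and 0.47.

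Several subunits exist in more than 1 form encoded by different genes, and these forms did not move together. Cox6b1 is the widespread form of subunit 6B and Cox6b2 the form known from testis. Cox6b2 rose from 0.0101 to 0.0213, 0.0269, 0.112 and 0.679 per 10000 from zone 1 to zone 5 of the duodenum. In the jejunum it rose from 0.050 to 0.250, 0.580, 1.18 and 1.59, and in the ileum from 0.0274 to 0.133, 0.354, 1.17 and 1.47. It rose at every step in each library, which no other nuclear member did. In molecules this was 11 to 325, 58 to 932 and 30 to 968 UMIs (log2 5.81, SE 0.55, adjusted p = 1.97e-06, with 6.08, 4.99 and 5.75 by library). Cox6b1 meanwhile fell from 15.6 to 5.50, from 13.6 to 3.8 and from 9.78 to 3.44 (log2 -1.62, SE 0.13, adjusted p = 5.76e-07). Cox6b2 thus went from 0.0643%, 0.367% and 0.279% of the subunit 6B UMIs in zone 1 to 11%, 29.5% and 29.9% in zone 5. Cox6b1 stayed the form with more UMIs in every zone and library. T cells had Cox6b2 at 0.0604, 0.0896 and 0.113 per 10000, above the zone 1 and under the zone 5 values of the same libraries, and the part of free RNA in these levels was not tested. On chromosome 7 the neighbouring Fam71e2 had 0 UMIs, and the level of Kmt5c was 0.260 in zone 1 and 0.614 in zone 5 of the duodenum, 0.249 and 0.633 in the jejunum, and 0.236 and 0.548 in the ileum.

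Cox7a1, the form of subunit 7A known from heart and skeletal muscle, and Cox7a2, the widespread form, gave a pattern that differed by library. Cox7a1 went from 7.29 to 1.36 in the duodenum, from 6.53 to 2.21 in the jejunum and from 2.30 to 1.71 in the ileum (log2 -1.43, SE 0.33, adjusted p = 0.00174), with -2.42, -1.56 and -0.43 by library. Cox7a2 fell from 14.6 to 4.21, from 13.2 to 1.90 and from 9.13 to 1.16 (log2 -2.54, SE 0.22). The Cox7a1 share of both was 33.3% in zone 1 and 24.5% in zone 5 of the duodenum, but 33.1% and 53.7% in the jejunum and 20.1% and 59.6% in the ileum. In the distal libraries Cox7a1 was therefore the form with more UMIs at the tip.

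Atp5g1, Atp5g2 and Atp5g3 encode the same mature c subunit of the ATP synthase rotor with different import sequences. Atp5g1 fell from 14.8 to 1.51, from 11.1 to 0.563 and from 7.33 to 0.267 (log2 -4.13, SE 0.28, adjusted p = 1.77e-07), a 17.5-fold drop. Atp5g2 fell from 4.39 to 0.648, from 3.76 to 0.277 and from 4.08 to 0.240 (log2 -3.55, SE 0.24, adjusted p = 1.42e-07). Atp5g3 fell less, from 12.8 to 4.10, from 13.1 to 2.29 and from 7.94 to 1.07 (log2 -2.35, SE 0.23). The Atp5g3 share of the 3 rose accordingly from 40.1%, 46.9% and 41.0% in zone 1 to 65.5%, 73.2% and 67.8% in zone 5. The share of Atp5g1 went from 46.2%, 39.6% and 37.9% to 24.2%, 18% and 17%.

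**Figure D3:**
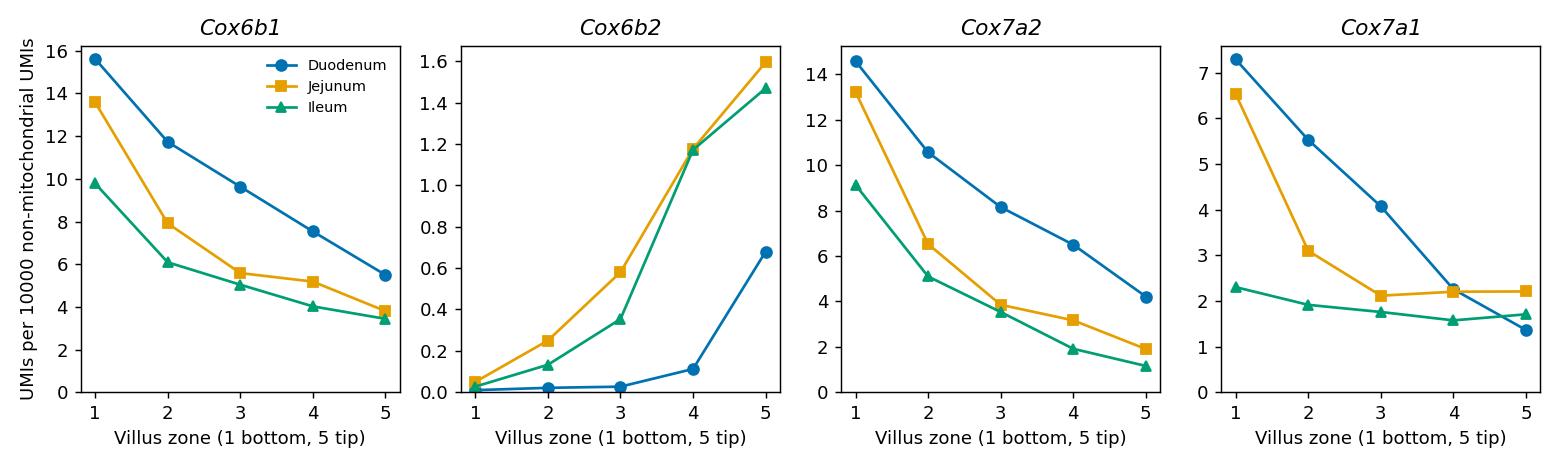
Level per 10000 non-mitochondrial UMIs (linear axis, own scale for each gene) by villus zone of Cox6b1 and Cox6b2, and of Cox7a2 and Cox7a1, 1 line per library. Cox6b2 climbs to 0.679, 1.59 and 1.47 in zone 5 as Cox6b1 falls to 5.50, 3.8 and 3.44, and Cox7a1 ends above Cox7a2 in jejunum and ileum.

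Promoters are shown for the isoform pair Cox6b1 and Cox6b2 and for Cox7a1, whose patterns differed, and for Ndufaf4 and Atp5g2 as examples that hold an NRF1 motif. They were chosen after values and motifs were seen, and Ndufc2, Ndufb5 and Atp5g1, which fell more than Atp5g2, held none of the motifs searched. Each line gives the 250 bases before the RefSeq start of the gene in GRCm38.p6, 5′ to 3′ on the gene's strand, with motif letters in capitals:
Ndufaf4 (chr4:24897833-24898082, plus strand): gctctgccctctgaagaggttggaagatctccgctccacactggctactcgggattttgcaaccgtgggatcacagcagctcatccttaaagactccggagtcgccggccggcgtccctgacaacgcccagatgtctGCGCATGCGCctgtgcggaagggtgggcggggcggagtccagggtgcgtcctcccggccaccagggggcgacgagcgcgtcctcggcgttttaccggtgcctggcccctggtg
Atp5g2 (chr15:102671048-102671297, minus strand): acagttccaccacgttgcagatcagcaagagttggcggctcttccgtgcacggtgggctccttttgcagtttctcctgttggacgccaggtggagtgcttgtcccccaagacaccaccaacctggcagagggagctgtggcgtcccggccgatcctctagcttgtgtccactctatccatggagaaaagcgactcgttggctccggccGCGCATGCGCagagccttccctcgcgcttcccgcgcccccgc
Cox6b1 (chr7:30626115-30626364, minus strand): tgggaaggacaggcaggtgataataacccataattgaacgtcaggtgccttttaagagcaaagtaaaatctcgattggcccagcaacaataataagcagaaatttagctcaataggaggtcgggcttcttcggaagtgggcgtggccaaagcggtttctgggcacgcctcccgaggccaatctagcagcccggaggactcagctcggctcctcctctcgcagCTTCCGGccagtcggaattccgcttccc
Cox6b2 (chr7:4753095-4753344, minus strand): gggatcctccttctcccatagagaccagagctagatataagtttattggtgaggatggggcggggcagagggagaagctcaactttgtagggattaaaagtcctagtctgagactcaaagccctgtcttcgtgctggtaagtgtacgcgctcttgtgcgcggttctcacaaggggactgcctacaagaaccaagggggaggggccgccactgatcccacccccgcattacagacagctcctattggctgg
Cox7a1 (chr7:30183921-30184170, plus strand): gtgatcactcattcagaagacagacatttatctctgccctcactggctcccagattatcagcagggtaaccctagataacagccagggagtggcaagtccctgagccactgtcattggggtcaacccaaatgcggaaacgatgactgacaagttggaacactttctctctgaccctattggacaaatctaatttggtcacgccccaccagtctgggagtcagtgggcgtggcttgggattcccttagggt
The first pair holds the palindromic core of NRF1, a nuclear respiratory factor known to act on respiratory genes (GCGCATGCG, which matches both strands here with overlap), starting 113 bases before the Ndufaf4 start and 42 before the Atp5g2 start. Cox6b1 holds the core of ETS-family factors such as GABP (CCGGAAG, here on the other strand), 28 bases before its start. None of the 4 motifs searched lay in the windows of Cox6b2 or Cox7a1. Windows of 300 bases, 250 before to 50 after the start, were found for 74 of the 87 nuclear members. In these, the NRF1 letters were in 13.5% of members and 1.95% of all 27025 genes, the ETS letters in 24.3% and 9.93%, the YY1 letters (AAGATGGCG) in 10.8% and 1.64%, and the ERR letters (TCAAGGTCA) in 2.70% and 0.466%, each on both strands. In all, 31 of 74 members held at least 1 of the 4. The median GC content was 58.7% in windows of members and 52.7% in all windows.

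The mitochondrial members did not share the fall of the nuclear ones in duodenum and jejunum. Their summed level went from 2318 to 2718 per 10000 UMIs in the duodenum and from 2211 to 2582 in the jejunum, but from 1651 to 961 in the ileum. In duodenum and jejunum it peaked in zone 3, at 2815 and 2824, and declined from there to the tip. Of 13 genes, 2 were lower and 0 higher at the tip by edgeR (0 also at an unadjusted p under 0.05), where among all 11087 genes scaled the same way 53.9% were lower and 19.1% higher. Under TMM 0 were lower and 6 higher, and under DESeq2 0 and 7, so their direction depended on the scaling. Over all 15 alternatives the count lower ranged from 0 to 10 and the median from -0.61 to 0.41. The 2 lower became 1 without the jejunum and 0 without the ileum. mt-Nd1, a membrane subunit of complex I, went from 117 to 88.9, from 109 to 96.2 and from 73.8 to 25.9 (log2 -0.70, SE 0.24, adjusted p = 0.0175). mt-Cytb, the cytochrome b of complex III, went from 206 to 179, from 205 to 181 and from 161 to 54.5 (log2 -0.64, SE 0.27, adjusted p = 0.0445), and under DESeq2 its change was 0.0095. mt-Co1, the catalytic subunit of complex IV, went from 421 to 708 and from 386 to 621 in duodenum and jejunum, and from 296 to 289 in the ileum (log2 0.47, SE 0.23, adjusted p = 0.0834). The median of the 13 was -0.25, with 0.14, 0.13 and -0.89 by library, and it turned to 0.365 under TMM, 0.41 under DESeq2 and 0.14 without the ileum. In the ileum 8 of 13 fell at every step, and in the other libraries none did. The summed level of the 13 genes is the same quantity as the mitochondrial share of the cells, 23.2% of UMIs in zone 1 of the duodenum by either name. The filter of at most 40% mitochondrial UMIs acted on that share and bounds these levels from above.

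Other mitochondrial gene lists were counted along the villus in the same way, where 53.1% of all genes were lower, 19.2% were higher and the median was -0.70. The mitochondrial ribosomal proteins, which translate the mitochondrial members, were lower in 76 of 77 cases and higher in 0, with a median of -2.66. Of the mitochondrial DNA expression list 10 of 12 were lower and 0 higher (median -2.30). Among them were Lrpprc, which stabilises mitochondrial messenger RNA, from 0.567 to 0.0355, 0.278 to 0.0103 and 0.253 to 0.00910 (log2 -4.51, SE 0.32, adjusted p = 2.34e-07), and Tfam, which packs and transcribes mitochondrial DNA (log2 -2.19, SE 0.25). Electron carriers and assembly factors outside the symbols used here were lower in 30 of 33, with a median of -2.01. Cyc1, the cytochrome c1 of complex III, fell from 7.96 to 1.59, 6.83 to 0.813 and 4.80 to 0.385 (log2 -3.00, SE 0.23), while Cycs, cytochrome c itself, changed little (log2 -0.30, SE 0.13, adjusted p = 0.0479). Of the tricarboxylic acid cycle 11 of 13 genes were lower (median -2.39) and citrate synthase, Cs, was higher (log2 0.54, SE 0.18, adjusted p = 0.0142). Of mitochondrial carriers 5 of 7 were lower and Vdac2 was higher. In the regulator list 5 of 9 were lower, a share near that of all genes, among them the coactivator Ppargc1a (log2 -3.39, SE 0.44, adjusted p = 2.31e-05) and the receptor Esrra (log2 -1.52, SE 0.23), and Hnf4a, an enterocyte identity factor, was higher, from 2.27 to 5.97, 2.13 to 7.01 and 2.54 to 8.17 (log2 1.59, SE 0.16, adjusted p = 2.58e-06). Of glycolysis 7 of 15 were lower and 1 higher, a share lower that is under that of all genes, and the median of -0.31 lay above theirs.

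Cell classes were compared with all enterocytes of the same library, so the enterocyte sums are shared by the 5 comparisons and their results are not independent. The summed level of nuclear members in enterocytes was 512, 359 and 259 per 10000 in duodenum, jejunum and ileum. ISC had 601, 506 and 415, above the enterocytes of each library. Tuft cells had 445, 322 and 275, enteroendocrine cells 262, 206 and 179, T cells 258, 229 and 217, and goblet cells 158, 126 and 140. Goblet cells were thus the lowest of these 6 classes in every library. Since enterocytes span 739 to 93.4 along the villus, the choice of reference matters, and each count is also given against zone 1 and zone 5. The summed markers of enterocytes stood at 4.84% to 7.64% of the enterocyte level in ISC, 8.75% to 10.7% in goblet, 11.5% to 14.8% in enteroendocrine, 17.4% to 21.2% in tuft and 7.50% to 25.8% in T cells. Their part in the differences was not tested.

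**Figure D4:**
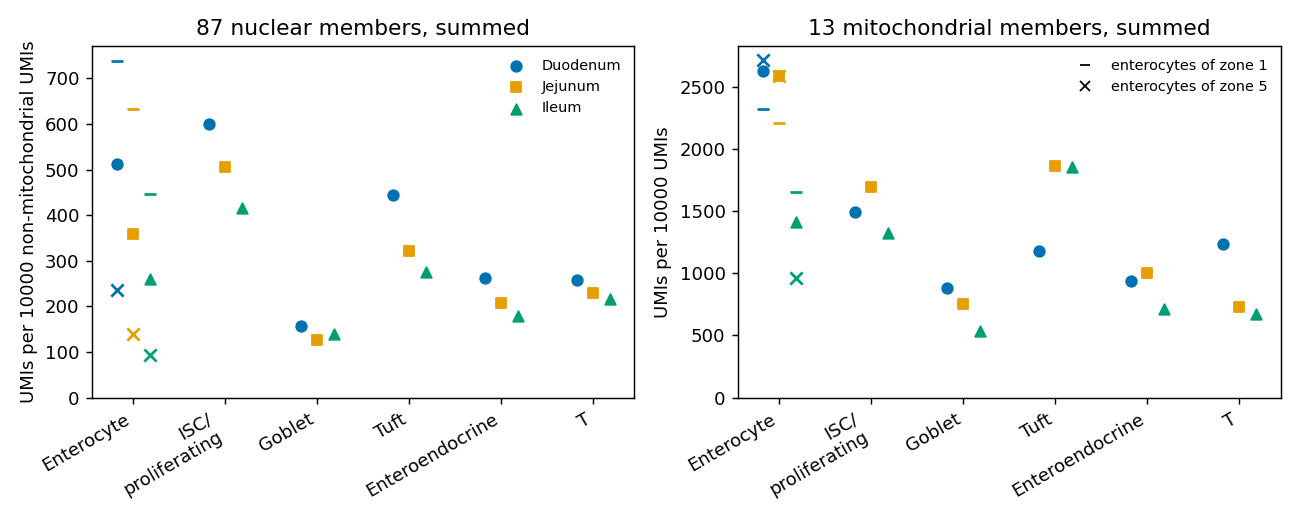
Summed level of nuclear members (left) and mitochondrial members (right) by cell class, 1 point per library, with enterocytes of zone 1 and zone 5 marked for each library. Of the 6 classes plotted, ISC have the highest nuclear sum (601, 506 and 415), under zone 1 enterocytes (739, 632 and 447), and goblet cells have the lowest, and enterocytes of duodenum and jejunum the highest mitochondrial sum (2625 and 2582).

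In ISC, 46 of 86 nuclear members were higher and 3 lower than in enterocytes, against 40.9% and 19.7% of all 12441 genes tested. Without the jejunum 27 were higher and 1 lower. The median log2 fold change was 0.57 beside 0.49 for all genes, so the members differed from the rest of the transcriptome by 0.08. Under TMM scaling the split turned to 9 higher and 20 lower, with medians of -0.13 for members and -0.19 for all genes. Against zone 1 enterocytes 8 were higher and 16 lower, and against those of zone 5, 81 were higher and 2 lower. The direction for the sum of the group in ISC therefore depended on the scaling and on the reference. The assembly factors stood out in size, with 7 of 8 higher and a median of 1.82: Ndufaf6 was at 0.382, 0.322 and 0.402 in ISC and 0.0661, 0.0426 and 0.0708 in enterocytes (log2 2.63, SE 0.38, adjusted p = 1.5e-06). Ndufaf4 was at 1.09, 1.34 and 0.896 against 0.470, 0.177 and 0.121 (log2 2.28, SE 0.31, adjusted p = 5.33e-07). Atp5g2 was at 9.03, 7.32 and 7.50 against 2.31, 1.64 and 1.72 (log2 2.08, SE 0.24, adjusted p = 4.10e-08), and made up 26.9%, 26.1% and 32.0% of the c subunit UMIs against 12.0%, 11.7% and 18.4%. Each of these ISC levels lay above that of its library's enterocytes taken as a whole, where 40.9% of all genes were called higher. Further genes called higher by edgeR were Ndufc2 (log2 1.27), Ndufb5 (1.19), Atp5s, a coupling factor of ATP synthase (1.35), Cox7a2l (1.17), Uqcrc2, a core protein of complex III (0.88), Sdhd (0.74) and Uqcr10 (0.72). Of these, Ndufc2 alone kept its call under TMM. Lower were Cox7a1, at 0.751, 0.679 and 0.296 against 4.72, 3.69 and 1.91 (log2 -2.60, SE 0.33, adjusted p = 1.71e-07), Cox6b2 (-1.0) and Ndufa1 (-0.76).

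In goblet cells, 80 of 86 nuclear members were lower and 0 higher by edgeR (0 also at an unadjusted p under 0.05), against 30.2% and 10.6% of all genes. The median was -1.35 beside -0.42 for all genes, and 71 were lower under TMM and 70 under DESeq2, which also called 2 higher. All members of complexes II, III and IV that were tested were lower, with 35 of 36 complex I subunits, 5 of 8 assembly factors and 14 of 16 of complex V. Sdhb was at 1.16, 0.875 and 0.822 in goblet cells and 5.17, 3.63 and 2.37 in enterocytes (log2 -1.92, SE 0.20, adjusted p = 1.53e-08). Atp5o, a stalk subunit of ATP synthase, was at 2.15, 1.64 and 1.72 against 10.2, 7.36 and 5.67 (log2 -2.05, SE 0.22, adjusted p = 1.89e-08), and Atp5b, the catalytic beta subunit, at 3.73, 3.29 and 3.76 against 15.7, 13 and 9.47 (log2 -1.80). Each of these goblet values lay under that of its library's enterocytes taken as a whole, where 30.2% of all genes were called lower. Uqcrc1 (-1.92) and Uqcrfs1 (-1.74), core and iron-sulfur proteins of complex III, Sdhc (-1.64), Ndufa5 (-2.02), Ndufc1 (-1.92), Ndufaf6 (-1.84) and Ndufaf4 (-1.36) were the other leading genes. Against zone 5 enterocytes the median was 0.10, with 15 higher and 13 lower, so goblet cells lay below the enterocytes as a whole and near those of the tip. The members not called were Ndufaf3, Ndufaf5, Ndufaf7, Ndufa7, Atp5g2 and Atp5s.

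In tuft cells, 10 nuclear members were higher and 16 lower of 86, against 28.7% and 15.2% of all genes, with a median of -0.14 beside 0.26. The 10 higher became 2 without the jejunum and 5 without the ileum, and the 16 lower became 8 without the duodenum and 5 without the jejunum. Under TMM 3 were higher and 43 lower, against zone 1 enterocytes 52 were lower, and against those of zone 5, 75 were higher and 2 lower. Ndufaf3, an assembly factor of complex I, was at 0.728, 0.587 and 0.762 in tuft cells and 0.320, 0.200 and 0.183 in enterocytes (log2 1.61, SE 0.25, adjusted p = 8.16e-06). Ndufaf7, a methyltransferase of complex I assembly, was at 0.211, 0.174 and 0.141 against 0.108, 0.0474 and 0.0430 (log2 1.44, SE 0.38, adjusted p = 0.00269). Atp5s (1.48), Ndufs8 (0.86) and Ndufa7 (0.84) were also higher, and lost the call under TMM. Uqcrc1 was at 2.32, 1.78 and 2.08 against 7.70, 4.67 and 2.85 (log2 -1.22, SE 0.22, adjusted p = 4.81e-05), and Sdhb (-0.91), Sdhd (-0.86), Atp5c1 (-0.80) and Uqcrfs1 (-0.65) were lower too. Complexes II, III and IV had no member called higher in tuft cells. Of 36 complex I subunits 6 were higher and 2 lower. That share higher is under the 28.7% of all genes, and their median of 0.12 is under the 0.26 of all genes.

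In enteroendocrine cells, the class the study was after, 3 nuclear members were higher and 50 lower of 86, against 36.3% and 16.2% of all genes. The median was -0.72 beside 0.43 for all genes, a difference of -1.15, and TMM gave 2 higher and 72 lower. Without the jejunum 32 were lower. Sdhb was at 1.64, 0.984 and 1.09 in enteroendocrine cells (log2 -1.54, SE 0.21, adjusted p = 7.74e-07), Atp5o at 3.08, 1.97 and 2.26 (log2 -1.65, SE 0.22, adjusted p = 5.94e-07) and Uqcrc1 at 2.00, 1.93 and 1.69 (log2 -1.37, SE 0.22). Each of these lay under the enterocyte level of its library. Sdhc (-1.41), Atp5d (-1.21), Ndufa3 (-1.21), Uqcrq, the ubiquinone-binding subunit of complex III (-1.11), and Ndufa10 (-1.08) followed. All 4 complex II genes, 7 of 8 complex III and 11 of 14 complex IV genes were lower. Ndufaf7 at 0.252, 0.227 and 0.110 (log2 1.54, SE 0.38, adjusted p = 0.00133) and Ndufaf3 at 0.699, 0.681 and 0.316 (log2 1.22, SE 0.27, adjusted p = 0.000376) were higher than in enterocytes. Against zone 5 enterocytes the median was 0.78, with 51 higher and 3 lower, and against zone 1 78 were lower.

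In T cells, 8 nuclear members were higher and 48 lower of 86, against 39.2% and 23.4% of all genes, with a median of -0.59 beside 0.42. TMM gave 2 higher and 73 lower, and against zone 5 enterocytes 53 were higher and 3 lower, and against zone 1 74 were lower. Without the duodenum or the jejunum 28 were lower, and without the jejunum or the ileum 5 were higher. The duodenal library had 35 T cells with enterocyte markers at 25.8% of the enterocyte level. Uqcrc1 was at 2.30, 1.49 and 1.46 in T cells (log2 -1.5, SE 0.22, adjusted p = 1.87e-06), Sdhd at 0.665, 0.663 and 0.790 against 2.76, 1.84 and 1.21 (log2 -1.26, SE 0.24) and Uqcr11 at 2.17, 1.93 and 1.86 against 8.61, 5.41 and 3.31 (log2 -1.42, SE 0.23). Atp5o (-1.41), Sdhb (-1.29), Ndufc1 (-1.02) and Ndufb9 (-0.97) were lower as well. Assembly factors went the other way by total UMIs, with 6 of 8 higher and a median of 1.16, led by Ndufaf7 (1.80) and Ndufaf5 (1.41). Of all genes 39.2% were higher, with a median of 0.42. At most 2 of these 6 calls can remain under TMM, which left 2 nuclear members higher in all. Atp5g2 was at 3.93, 4.68 and 4.32 against 2.31, 1.64 and 1.72 (log2 1.22, SE 0.24, adjusted p = 8.71e-05, not called under TMM), and it supplied 34.2%, 43.3% and 44.1% of the c subunit UMIs of T cells.

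Cox7a1 and Cox6b2 were among the genes with the largest differences between enterocytes and the other classes. Cox7a1 was at 4.72, 3.69 and 1.91 per 10000 in enterocytes and at 0.434, 0.258 and 0.412 in goblet, 0.920, 0.391 and 0.326 in tuft, 0.992, 0.719 and 0.468 in enteroendocrine and 1.45, 0.197 and 0.211 in T cells. Its log2 fold change was -3.06 in goblet, -2.71 in tuft, -2.26 in enteroendocrine and -3.03 in T cells, with adjusted p from 2.44e-08 to 4.26e-06. Of enterocytes taken as a whole, the lowest value, 1.91 in the ileum, was above every value of these classes. The highest value of these classes was that of the 35 duodenal T cells. As a share of subunit 7A, Cox7a1 made up 28.7% to 35.1% in enterocytes, 3.88% to 6.64% in ISC, 5.33% to 7.86% in tuft, 10.1% to 13.2% in goblet and 13.2% to 16.1% in enteroendocrine cells. Cox6b2 was at 0.121, 0.619 and 0.582 in enterocytes and at most 0.174 in goblet, tuft, enteroendocrine and T cells, while ISC, at 0.162, 0.196 and 0.176, lay above the enterocytes in the duodenum. Its log2 fold change was -3.38 in goblet, -2.49 in tuft, -3.31 in enteroendocrine and -2.13 in T cells, while against zone 1 enterocytes it was 0.51, 1.39, 0.56 and 1.82. Duodenal tuft cells had 0 Cox6b2 UMIs.

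Mitochondrial members by class followed another order. Their summed level is again the mitochondrial share of the cells, on which the cell filter acted. Their summed level was 2625, 2582 and 1410 per 10000 UMIs in enterocytes, 1492, 1692 and 1320 in ISC, 1178, 1859 and 1857 in tuft, 940, 1005 and 713 in enteroendocrine, 1234, 729 and 670 in T and 879, 752 and 535 in goblet cells. All 13 were lower in goblet cells (median -1.49), where 21.3% of all genes were lower. In enteroendocrine cells 12 were lower (median -1.14, background 13.2%, but 6 without the jejunum) and in T cells 12 (median -1.29, background 20.2%), mt-Nd6 being the exception in both. In ISC only mt-Co1 was called (3 genes without the ileum), at 220, 233 and 178 against 591, 549 and 331 (log2 -1.18, adjusted p = 0.00177), where 17.9% of all genes were lower. Under TMM 11 were lower in ISC. By edgeR 0 were higher in any of the 5 classes, also at an unadjusted p under 0.05, where 44%, 13.1%, 31%, 42.5% and 44.4% of all genes were higher in ISC, goblet, tuft, enteroendocrine and T cells. In tuft cells 0 of 13 were called lower by edgeR, also without adjustment, where 14% of all genes were, with a median of -0.17, and 5 were lower under TMM, 2 under DESeq2 and 4 without the ileum. The median ratio of tuft cells to enterocytes was -1.07 in the duodenal, -0.38 in the jejunal and 0.58 in the ileal library, so the libraries disagreed in direction.

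Along the gut, enterocyte levels of the nuclear members went down from duodenum to ileum. With 1 library per segment there is no test, and intervals cover counting error only. In the ileum 78 of 86 nuclear members were lower than in the duodenum by more than 1.5-fold and 1 was higher, where 29.4% and 18.3% of all genes passed that fold. The median log2 ratio was -1.03 beside -0.19 for all genes. In the jejunum 33 of 87 were lower and 2 higher, against 27.5% and 11.8%, with a median of -0.54 beside -0.25, and 8 were lower under TMM. Complexes I, II and III were lower as a whole in the ileum (36 of 36, 4 of 4 and 8 of 8). Ndufa5, an accessory subunit of complex I, showed the largest decrease, with 5.49 (95% exact Poisson interval 5.42 to 5.57) in the duodenum, 2.69 (2.64 to 2.74) in the jejunum and 1.26 (1.23 to 1.30) in the ileum, 4.35-fold. Ndufc1 was at 6.93, 3.23 and 1.74, Sdhc, a membrane anchor of complex II, at 3.31, 2.12 and 1.08, and mt-Nd6 at 1.03, 0.619 and 0.310. Cox7a2l at 2.16, 1.68 and 2.13, Ndufaf6 at 0.0661, 0.0426 and 0.0708 and Ndufaf8 at 0.851, 0.856 and 0.701 differed little between duodenum and ileum. Cox6b2 went the other way, at 0.121 (0.110 to 0.132), 0.619 (0.594 to 0.644) and 0.582 (0.557 to 0.607).

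The ileal difference was present in each villus zone and was largest in zones 4 and 5. Zones are ranks within a library, so the same zone need not hold the same villus position in different libraries. Tip landmarks summed to 63.7 and 140 per 10000 in zone 4 of duodenum and ileum, and bottom landmarks to 78.1 and 23.1. In zone 5 the tip landmarks stood at 255 and 245, and the bottom landmarks at 27.7 and 12.8. The part of this in the zone values was not tested. The median log2 ratio of nuclear members, ileum over duodenum, was -0.73, -0.92, -1.15, -1.57 and -1.47 from zone 1 to zone 5, beside -0.0034, -0.12, -0.30, -0.49 and -0.50 for all genes. It was -0.67 in tuft cells, -0.51 in ISC, -0.22 in T cells and -0.18 in goblet cells. Enterocytes thus showed a larger segment difference than goblet or T cells of the same libraries, though that difference was not tested. All 13 mitochondrial members were lower in ileal than in duodenal enterocytes (median -0.95, background 29.4%), and in the jejunum 1, mt-Nd6, was (median -0.04, background 27.4%). Their ileal median was -0.58 in zone 1 and -1.66 in zone 5, -0.73 in goblet and -0.78 in T cells, and 0.70 in tuft cells. Among cells of at most 20% mitochondrial UMIs 84 nuclear members were lower in the ileum (median -1.44) and 5 mitochondrial ones (median -0.45). The enterocyte clusters that made up each library differed: 1053 of 3569 duodenal enterocytes lay in a cluster led by Slc2a2 and Fabp1, and 772 and 600 of 4205 ileal ones in clusters led by Pck1 and Pdk4 and by Tmigd1 and Slc10a2.

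**Figure D5:**
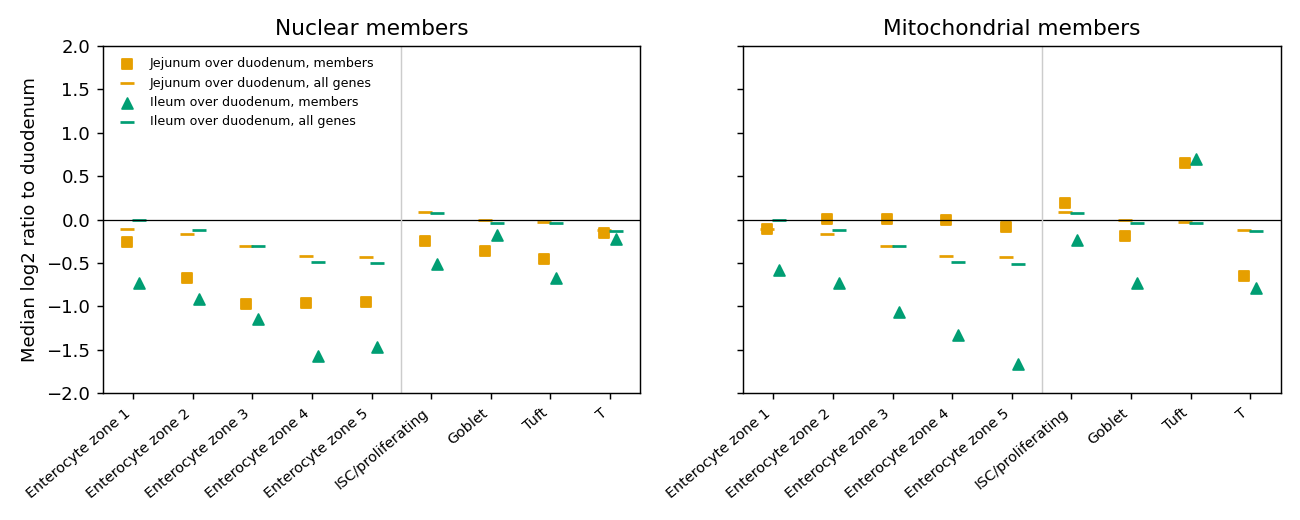
Median log2 ratio to the duodenum of nuclear and mitochondrial members in jejunum and ileum, by villus zone and cell class, with the median of all genes as dashes. The ileal nuclear median goes from -0.73 in zone 1 to -1.47 in zone 5, and goblet and T cells lie at -0.18 and -0.22.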

How the data were processed

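Cells were isolated from duodenum, jejunum and ileum, sorted as live cells and sequenced with the Chromium 3′ v3 chemistry on a NovaSeq 6000, and the authors used Cell Ranger 3.0.2 with mm10 to count UMIs of each gene in each cell. The deposited values are raw UMI counts, 1 matrix per segment, with a total of 78074516 to 98518847 counts per library. Reads that fit more than 1 gene are not counted by that program, so members with near-identical pseudogenes are uncertain. The members and gene lists were chosen with earlier results of these data known.

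As in the study, kept cells had from 200 to 6000 genes, from 800 to 50000 UMIs and no more than 40% of UMIs from mitochondrial genes. They were integrated and clustered in Seurat 5.3.0 (2000 variable genes without members and mitochondrial genes, 30 components, resolution 0.8), and clusters were named from marker lists; the study's own annotation was not used here, and the rules for naming were settled after the clusters were seen, so classes may differ from the study's. A doublet caller (Scrublet in scanpy 1.11.5) marked 0, 0 and 146 cells and thus did not work for duodenum and jejunum, and doublets were kept. Enterocytes were ranked by 8 tip minus 11 bottom landmark genes into 5 zones per library.

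UMIs were summed per library and class or zone (at least 10 cells) and tested with edgeR 4.0.16 (glmQLFit and glmQLFTest, filterByExpr, library as a block, Benjamini-Hochberg over all genes, threshold 0.05), scaled by non-mitochondrial UMIs for nuclear and all UMIs for mitochondrial members. The replicates are the 3 libraries of pooled mice, and the library block takes up differences in level between segments. The p-values therefore measure how far class or zone differences varied from library to library. That spread was estimated over all 28 class sums or all 15 zone sums of a fit, so rare classes borrowed it from the others. Whether the same 3 mice gave all segments is not given in the sources used here, and if they did, the libraries hold 1 set of animals. Segments were compared without a test, by a 1.5-fold rule over genes with at least 50 UMIs, and their exact 95% Poisson intervals cover only counting error. Each SE is the size of the log2 fold change divided by the square root of the test's F statistic. It is not a separately fitted error and need not match the p-value. The scripts were tested on simulated counts. Named were up to 2 called nuclear members of largest change per complex and comparison, the mitochondrial members and members with isoforms; Ndufs1, Ndufaf8, Ndufa1, Atp5d along the villus, Cyc1, Cycs, Cs, Vdac2, Lrpprc, Tfam, Ppargc1a, Esrra, Hnf4a, Fam71e2, Kmt5c and the genes named for segments were chosen after their values were seen. Alternatives were TMM and DESeq2 1.42.0 scaling, no filter on low genes, the other denominator, each library left out, other cell limits, clustering without integration, doublets or marker-rich cells left out and other zones. References of zone 1 or zone 5, zones from tip or bottom landmarks alone, and a limit of 5000 to 15000 UMIs were added after seeing the data.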

Additional observations from a re-analysis of the deposited data

Results flagged for a closer look

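In 4 results the libraries of different segments moved in opposite directions, and the difference between segments was not tested, since each segment is 1 library. The median log2 ratio of mitochondrial members in ISC over enterocytes was -0.67 for the duodenal, -0.56 for the jejunal and 0.073 for the ileal library. For tuft cells over enterocytes the median of nuclear members was -0.16, -0.17 and 0.14, and that of mitochondrial members -1.07, -0.38 and 0.58. From villus bottom to tip the median of mitochondrial members was 0.14, 0.13 and -0.89. In each case the ileum stood apart, the library with the lowest median depth (5536 UMIs per cell) and the lowest median mitochondrial share (11.1%), and the part of these properties in the differences was not tested.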

How the results depend on the processing

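Along the villus the count of nuclear members lower at the tip stayed between 82 and 86 under 15 alternatives and with each library left out, and for ileum against duodenum it stayed between 66 and 84 under 7. The classes depended more on scaling and reference. For ISC, 46 members were higher, but 9 under TMM, 20 with at most 20% mitochondrial UMIs, 8 against zone 1 and 81 against zone 5, and 27 to 52 with each library left out. For goblet cells, 80 were lower but 13 against zone 5, and 72 to 82 with each library left out. For tuft cells, 16 were lower, but 43 under TMM, 35 under DESeq2, 10 without the filter on low genes, 32 with at most 20% mitochondrial UMIs, 10 with no limit on them, 52 against zone 1, 2 against zone 5, and 5 to 12 with each library left out, where the 10 higher ones became 2 to 10. For enteroendocrine cells, 50 were lower, but 78 against zone 1, 3 against zone 5, and 32 to 52 with each library left out. For T cells, 48 were lower, but 73 under TMM, 74 against zone 1, 3 against zone 5, and 28 to 51 with each library left out. For jejunum against duodenum, 33 were lower, but 17 with at most 20% mitochondrial UMIs and 8 under TMM. The median of nuclear members changed sign in ISC under TMM (-0.13) and against zone 1 (-0.16), and against zone 5 in goblet (0.10), tuft (1.42), enteroendocrine (0.78) and T cells (0.89). The median of mitochondrial members changed sign in tuft cells without the duodenum (from -0.69 to 0.15 with each library left out), at the villus tip under TMM (0.365), DESeq2 (0.41) and without the ileum (from -0.43 to 0.14 with each library left out), and in the jejunum with at most 20% mitochondrial UMIs (0.020) and under TMM (0.19). The count of mitochondrial members lower at the tip, 2, ranged from 0 to 10 over 15 alternatives. mt-Cytb at the tip was at 0.0095 under DESeq2. Against zone 1, Cox6b2 turned to 0.51 in goblet, 1.39 in tuft, 0.56 in enteroendocrine and 1.82 in T cells, Sdhd to -0.20 in ISC and Ndufs8 to -0.077 in tuft cells. Against zone 5, Ndufa5 (0.046), Ndufaf4 (2.03), Ndufaf6 (0.55) and Ndufc1 (0.0029) turned in goblet cells, Atp5c1 (0.82), Sdhb (0.46), Sdhd (1.19) and Uqcrfs1 (0.32) in tuft cells, Ndufa10 (0.93) and Uqcrq (0.15) in enteroendocrine cells, and Atp5o (0.12), Ndufb9 (0.18), Ndufc1 (0.91), Sdhb (0.082), Sdhd (0.82) and Uqcr11 (0.38) in T cells. The cause was not tested beyond the construction of each alternative, and the references of zone 1 and zone 5 were chosen after seeing the data. With 2 libraries left, a comparison has fewer degrees of freedom. No paired analysis was possible because the labelled groups, the segments, have 1 library each, whereas zones and classes were compared within libraries by the library block of each test. The depth of 5536 UMIs per ileal cell against 12424 in the duodenum limits low members such as Ndufaf4, with 6 UMIs in ileal zone 5.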

Other observations

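Among the remaining classes, plasma cells had the lowest summed nuclear level of those with at least 10 cells per library, 104, 90.3 and 93.6 per 10000 in duodenum, jejunum and ileum, beside 512, 359 and 259 in enterocytes. B cells stood at 196, 197 and 175, and macrophage and dendritic cells at 194, 162 and 181. Paneth cells, at 116, 37.7 and 51.8, rest on 7, 6 and 11 cells. For the mitochondrial members the sums were 651, 497 and 269 in plasma cells and 1327, 1417 and 918 in B cells. These classes were not compared by a test.

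Cox6a2, the muscle form of subunit 6A, was nearly confined to a small unnamed cluster. Of its 336 UMIs, 294 came from 26 cells led by Ly6d, Siglech and Bst2, where its level was 13.4 per 10000 UMIs. In enterocytes it had 5, 23 and 1 UMIs.

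Genes of the mitochondrial expression machinery were higher in ISC than in enterocytes: 73 of 77 mitochondrial ribosomal proteins (median log2 fold change 1.70) and 9 of 12 of the DNA expression list (median 1.98), with none lower in either, where the median of all genes was 0.49 and that of the oxidative phosphorylation members 0.57. Of all genes 40.9% were higher in ISC. In T cells, where 39.2% of all genes were higher and 23.4% lower, 40 of 77 mitochondrial ribosomal proteins were higher and 2 lower, while of the tricarboxylic acid cycle 10 of 13 genes were lower and 0 higher. In goblet cells, where 30.2% of all genes were lower and 10.6% higher, 12 of 13 tricarboxylic acid cycle genes were lower, and 10 of 14 glycolysis genes were lower and 2 higher. The ISC and T cell results share the enterocyte sums.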
